A study of Mus musculus with 6 samples.

Results

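A small population of monocytes and macrophages in the mouse heart carried high levels of interferon-induced transcripts, and most of these cells came from 1 library, wild-type hearts 72 h after coronary ligation. The cells were chosen by measured counts of unique molecular identifiers (UMIs, each standing for 1 captured transcript). A cell needed at least 1000 UMIs, at least 200 detected genes and at most 20% mitochondrial UMIs. It also needed at least 5 UMIs of Csf1r, Cd68, Fcgr1 and Lyz2 together, S100a8 and S100a9 under 1% of its UMIs, at most 2 UMIs of Col1a2 and Cdh5, and at most 3 UMIs of Lyve1, Folr2, Timd4 and Cd163. These conditions keep monocytes and macrophages and leave out neutrophils, stromal cells and resident-type macrophages. Such cells are called candidate cells below. Interferon-responding cells were the candidate cells with at least 10 UMIs of Ifit1 (ENSMUSG00000034459), Ifit2 (ENSMUSG00000045932), Ifit3 (ENSMUSG00000074896) and Rsad2 (ENSMUSG00000020641) together. They numbered 260 of 8617 candidate cells (3.02%) and of 30014 cells that passed the cell filter in all 6 libraries (0.866%). The other 8357 candidate cells served for comparison. Because the 4 genes and the cells themselves set the selection, every contrast with the other candidate cells is a description and not a test.

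All cells came from the ventricles of male mice aged 8 to 12 weeks, after enzymatic digestion, filtration to remove cardiomyocytes, and sorting of live cells by Calcein-AM and DAPI. Wild-type mice (WT, strain C57BL/6JRj) and Trpm4 knockout mice (KO, strain B6.Cg-Trpm4tm1.2-PG) were sampled 24 h after a sham operation, or 24 h or 72 h after the left anterior descending artery had been tied off. Trpm4 encodes a cation channel opened by intracellular calcium. Each of the 6 groups has 1 library, made from cells of 4 mice pooled before sequencing with the 10x 3' chemistry, so no difference between groups has a replicate check and no p-value is given. The libraries hold 3625 to 7286 cells and 20995280 to 45649061 UMIs each. The intervals below are 95% intervals for counting error only and do not cover differences between mice or libraries.

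Type I interferons are secreted when sensors detect foreign or misplaced nucleic acids. They bind a receptor of 2 subunits, Ifnar1 and Ifnar2, and the kinases Jak1 and Tyk2 then activate a complex of transcription factors. This complex binds a short DNA element in the promoters of interferon-induced genes, among them antiviral effectors, further sensors, chemokines and the factor Irf7, while Usp18 and Socs1 damp the signal. After myocardial infarction, recruited monocytes and macrophages are known to switch on such genes when they take up DNA of dying cells.

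The KO ligation 72 h library stood apart in depth. Its candidate cells had a median of 2618.5 UMIs, against 9465 to 11394 in the other 5 libraries, and 58.0% of them had under 3000 UMIs, against 4.95% in WT ligation 72 h. Since the selection asks for a fixed number of UMIs, a shallow cell passes it less readily. The shares of cells and the Cxcl10 ratio are also given below at a matched or minimum depth. Other ratios against the other candidate cells of this library are given without such a match. The interferon-responding cells had medians of 9417 to 14131 UMIs per library. In KO ligation 72 h their median was 9885 UMIs, against 2592.5 in the other candidate cells, so the selection took deeper cells of that library. Trpm4 over all passing cells was lower in KO in each condition, at 6.03 against 8.78 CPM (UMIs per 1000000 UMIs summed over the cells) in sham, 3.46 against 5.48 at ligation 24 h and 2.58 against 4.24 at ligation 72 h. Reads at the 3' end need not cover the deleted part, so this is a weak check of the genotype labels. Among the interferon-responding cells, Trpm4 had 8 UMIs in WT ligation 72 h, 2 in KO sham and 0 in the other 4 libraries. Scrublet marked 6 of the 260 cells as doublets, and these were kept. Of 34822 distinct cell barcodes, 118 occurred in more than 1 library, and no barcode was that of an interferon-responding cell in more than 1.

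The selection required transcripts of Csf1r, Cd68, Fcgr1 or Lyz2, so their levels describe the cells and do not test the label of monocytes and macrophages. Lyz2, a lysozyme of myeloid cells, had a UMI in 178 of 184 interferon-responding cells of WT ligation 72 h and in all 38 of KO ligation 72 h. Csf1r, the receptor for the main macrophage growth factor, had one in 164 and 29. In WT ligation 72 h, 5 of the 184 cells had neither, and 3 of these carried Cd209a, a gene of monocyte-derived dendritic cells, so the selection holds some cells that go against the label. Macrophage markers summed to 21403 and 14192 CPM in these 2 groups and classical monocyte markers to 6769 and 7072 CPM. Among other cell types, markers of fibroblasts summed to 328 and 237 CPM, those of neutrophils to 172 and 104, those of B cells to 101 in both, those of T and NK cells to 22.9 and 0, those of smooth muscle and pericytes to 9.98 and 39.9, those of cardiomyocytes to 35.4 and 34.6, and those of endothelial cells to 69.0 and 93.1. Dendritic cell markers reached 97.3 CPM in WT and 383 CPM in KO, where 3 of 12 markers were at 0. The other candidate cells of the shallow KO library carried more transcripts of other cell types than the interferon-responding cells beside them, with 800.3 against 237 CPM of fibroblast markers and 989 against 39.9 CPM of erythroid and platelet markers. Their part in the lower values of that library described below was not tested.

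Promoters of several leading genes hold the kind of sequence that interferon-activated factors bind. The element is built from a repeat of GAAA, 2 bases and GAAA again, searched here on both strands, which allows overlapping matches. The windows, from RefSeq on build GRCm38.p6, run from 250 bases before to 50 bases after each transcript start, 300 bases in all. The stretches below, 5′ to 3′ on the gene's strand, show 5 of the genes in which the search found the repeat, with the repeat in capitals.
Ifit1: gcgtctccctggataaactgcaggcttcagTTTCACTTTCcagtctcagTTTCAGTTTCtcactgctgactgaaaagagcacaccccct
Ifit3: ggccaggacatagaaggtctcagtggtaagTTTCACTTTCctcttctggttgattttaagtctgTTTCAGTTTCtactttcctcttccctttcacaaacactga
Rsad2: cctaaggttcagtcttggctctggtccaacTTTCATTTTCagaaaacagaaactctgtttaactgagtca
Isg15: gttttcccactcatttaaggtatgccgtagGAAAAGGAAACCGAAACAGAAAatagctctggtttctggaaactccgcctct
Cxcl10: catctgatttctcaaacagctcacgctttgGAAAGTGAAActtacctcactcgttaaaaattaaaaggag

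These stretches lie at chr19:34640755-34640843 (Ifit1, plus strand), chr19:34583343-34583446 (Ifit3, plus strand), chr12:26456533-26456602 (Rsad2, minus strand), chr4:156200845-156200926 (Isg15, minus strand) and chr5:92349063-92349132 (Cxcl10, minus strand). Ifit1 and Ifit3 each hold 2 copies of the repeat, starting 104 and 85 bases before the start site in Ifit1 and 156 and 122 bases before it in Ifit3. Isg15 holds 3 overlapping copies, starting 78 to 66 bases before the start site. Rsad2 and Cxcl10 hold 1 each, at 120 and 213 bases. The stretch shown for Ifit3 is the same, base for base, in the window of its neighbour Ifit3b, a near-identical copy. How reads shared by these 2 genes were counted was not examined. Ifit2 had no match in its 2 windows, nor had the windows of Irf7, Oasl1, Cmpk2 and Ccl12, which says only that these letters are not there. Of 27025 genes with a window, 1079 (3.99%) held the repeat. It was present in 12 of the 19 genes with a window among the 20 ranked highest against other candidate cells, in 19 of the 38 interferon-induced antiviral genes with a window, in 11 of 12 interferon-gamma-associated genes, and in 60 of the 194 genes with a window that were over 2-fold higher in interferon-responding cells (30.9%), as described below. Of 85 genes with a window that were under 0.5-fold, 3 held it (3.53%), and of 16 inflammatory genes 0 did. A match is a description of sequence and not evidence of binding.

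Interferon-responding cells made up a far larger share of candidate cells in WT hearts 72 h after ligation than in any other library. They were 184 of 2202 candidate cells there (8.36%, 7.23 to 9.59%), against 12 of 622 in WT at ligation 24 h (1.93%, 1.0 to 3.35%) and 3 of 1006 in WT sham (0.298%, 0.0615 to 0.869%). In KO they were 38 of 2594 at ligation 72 h (1.46%, 1.04 to 2.01%), 19 of 1477 at ligation 24 h (1.29%, 0.776 to 2.0%) and 4 of 716 in sham (0.559%, 0.152 to 1.42%). WT ligation 72 h thus held 70.8% of the cells described here. At 72 h the share in KO minus that in WT was -6.89 percentage points (-8.18 to -5.68), and the WT share was 5.70 times that of KO. In sham and at ligation 24 h, the intervals of the difference between KO and WT included 0 (KO minus WT 0.26 points, -0.408 to 1.15, and -0.643 points, -2.13 to 0.446).

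The gap at 72 h narrowed but stayed once depth was matched. When every candidate cell with at least 2000 UMIs was thinned at random to 2000, and at least 2 UMIs of the 4 genes were asked for, the share was 10.2% in WT (221 of 2160 cells) and 4.77% in KO (76 of 1593, with 1001 shallower cells left out). That is a difference of -5.46 points (-7.11 to -3.79) and a ratio of 2.14 between WT and KO. When at least 0.1% of a cell's UMIs and at least 2 UMIs were asked for, the shares were 7.86% and 3.70%, a ratio of 2.12. The difference between 24 h and 72 h in KO also depended on depth. It was 0.179 points (-0.638 to 0.888) by the UMI count, 3.13 points (1.91 to 4.41) after thinning and 2.48 points (1.52 to 3.40) by the share of UMIs. In WT the same step was 6.43, 8.59 and 6.57 points.

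**Figure D1:**
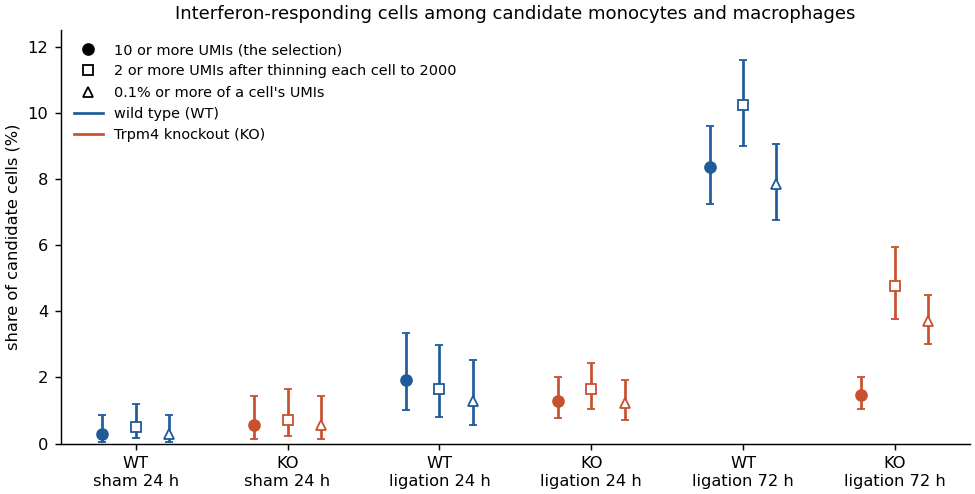
Share of candidate monocytes and macrophages that were interferon-responding (vertical axis, percent) in each library (horizontal axis), by the selection itself (filled circles), after thinning each cell to 2000 UMIs (open squares) and by the share of a cell's UMIs (open triangles). Bars are exact 95% binomial intervals for counting error, WT is blue and KO red. At 72 h the KO value is 1.46% by the selection and 4.77% after thinning, and both lie below WT at 8.36% and 10.2%.

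The 4 genes of the selection marked the cells to different degrees. Their sum ran from 10 to 275 UMIs in WT ligation 72 h, with a median of 20, and from 10 to 122 in KO ligation 72 h, with a median of 21.5. Ifit3, a member of the interferon-induced family that binds viral RNA, had a UMI in 182 of the 184 WT cells, Ifit1 and Ifit2 of the same family in 170 each, and Rsad2, an enzyme that makes a chain-terminating nucleotide, in 163. Ifit3 stood at 1027 CPM in WT and 973 CPM in KO at 72 h, and Rsad2 at 778 and 1002 CPM. Rsad2 was the highest of the 4 in KO at 72 h and in both genotypes at ligation 24 h, at 598 CPM in WT and 1618 CPM in KO, where Ifit2 stood at 123 and 267 CPM. In the other candidate cells none of the 4 exceeded 25.4 CPM in any library. The threshold cuts through a continuous range. Over all libraries 62 cells had 10 to 12 UMIs and 97 had 7 to 9, and in WT ligation 72 h there were 43 and 73.

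Nearly the whole antiviral program was high in the cells chosen by 4 of its genes. Outside the selection genes, 9069 genes had at least 50 UMIs over interferon-responding and other candidate cells in both 72 h libraries, the only 2 with at least 20 interferon-responding cells. Of these, 235 were over 2-fold higher in both libraries (2.59%) and 105 were under 0.5-fold in both (1.16%). Among 46 interferon-induced antiviral genes compared in both libraries, 45 were over 2-fold higher. The exception, named after its value was seen, was Oas1g, at log2 ratios of 1.72 in WT and 0.66 in KO. The median log2 ratio of this list was 2.14 in WT and 2.48 in KO at 72 h, beside -0.14 and -0.11 over all genes. In the smaller sets of 12 WT and 19 KO cells at ligation 24 h it was 2.12 and 2.84, beside 0.05 and -0.01. Asking for 2-fold in all 4 of these libraries left 128 genes higher and 6 lower, and all 128 were among the 235. WT ligation 72 h alone gave 333 and 540.

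Cxcl10, the chemokine that draws activated T cells through Cxcr3, came first when genes were ranked by the smaller of their ratios in the 2 libraries of ligation 72 h. Its level was 2043 CPM in interferon-responding cells of WT ligation 72 h against 10.1 CPM in the other candidate cells, and 2345 against 41.8 CPM in KO. The earlier ligation time gave 865 against 30.2 CPM in WT and 4571 against 13 CPM in KO. The log2 ratio was 7.65 in WT and 5.81 in KO at 72 h, and among cells with at least 5000 UMIs 8.05 and 7.0. Isg15, a ubiquitin-like protein that is attached to other proteins, stood at 2333 against 225 CPM in WT and 2520 against 199 CPM in KO at 72 h. In cells of the earlier ligation time it reached 1384 against 126 CPM in WT and 3270 against 102 in KO. All 260 cells but 1 had an Isg15 UMI. Isg15 UMIs were found in 48.7% of the other candidate cells of WT ligation 72 h and 36.5% of those of KO, at median depths of 11358 and 2592.5 UMIs.

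The other leading genes were further effectors of the same program. Oasl1, an oligoadenylate synthetase-like protein that limits translation of Irf7, had 237 CPM against 16.4 in WT and 221 against 12.4 in KO at 72 h. Cmpk2, a mitochondrial nucleotide kinase encoded beside Rsad2, had 168 against 4.77 CPM in WT and 237 against 6.36 in KO. Isg20, an exonuclease that degrades RNA, had 266 against 34.0 CPM and 441 against 32.3. Ifi205, of the family of DNA-binding Ifi200 proteins, had 176 against 16.9 CPM and 385.5 against 13.9. Herc6, the mouse ligase of the Isg15 pathway, had 92.3 against 12.6 CPM and 120 against 15.4 CPM. Ifitm3, which blocks fusion of viruses with endosomes, had a high level in the other candidate cells too and differed less, with 6033 against 3014 CPM in WT and 6054 against 2781 CPM in KO. Bst2, which tethers budding viruses, had 1130 against 453 CPM and 1308 against 349.

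**Figure D2:**
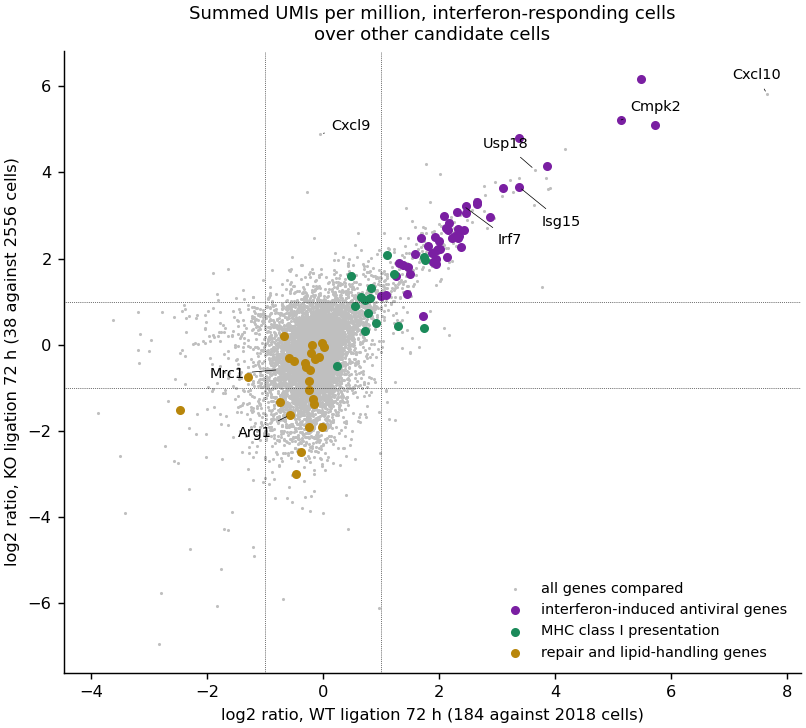
Each point is a gene, placed by the log2 ratio of its summed CPM in interferon-responding over other candidate cells, in WT ligation 72 h (horizontal axis) and KO ligation 72 h (vertical axis). Dotted lines mark 2-fold, and the antiviral list (purple) lies above 2-fold on both axes for 45 of 46 genes, with Cxcl10 farthest to the right.

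The machinery that receives the signal differed little, while its induced parts were high. Of 18 genes of interferon signaling and feedback, 8 were over 2-fold higher in both 72 h libraries and none was under 0.5-fold. The receptor subunit Ifnar2 had 284 against 252 CPM in WT and 295 against 244 CPM in KO, and Ifngr1, of the interferon-gamma receptor, had 214 against 319 and 237 against 309. Irf7, the factor that amplifies interferon production, had 1117 against 210.0 CPM and 1026 against 109. Usp18, which removes Isg15 and blocks the receptor, had 254 against 20.2 CPM and 279 against 16.7. Of 16 nucleic acid sensing genes 3 were over 2-fold higher in both libraries. Tmem173, encoding the DNA-sensing adaptor STING, had 56.1 against 51.3 CPM in WT and 47.9 against 46.3 in KO. Tlr7, an endosomal RNA sensor, had 55.3 against 35.2 and 53.2 against 35.3.

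Of 17 interferon-induced chemokine and cytokine genes, 15 could be compared in WT and 14 in KO at 72 h, with 11 over 2-fold higher in each and 10 in both. Ccl12, a monocyte attractant, had 1774 against 373 CPM in WT and 1702 against 277 CPM in KO, and Ccl7 had 1721 against 834 and 1247 against 492. Ccl2, the main ligand of Ccr2, stayed under 2-fold, with 2147 against 1275 CPM and 1773 against 1047 CPM. Cxcl9, a second Cxcr3 ligand known for its dependence on interferon-gamma, had 8.73 against 9.07 CPM in WT and 213 against 7.20 in KO, where 3 of 38 cells held all 80 UMIs. Of 22 interferon-gamma-associated genes, 14 had enough UMIs to be compared in WT and 11 in KO, with 13 and 10 over 2-fold higher. Gbp2, a guanylate-binding protein, had 94.4 against 11.1 CPM and 162 against 14.9, and Irgm1, a GTPase of vacuole defence, had 217 against 36.4 and 207 against 29.0. The list's median log2 ratio was 2.30 in WT and 2.36 in KO.

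Antigen presentation by MHC class I was higher in both libraries, and by class II in KO. All 17 class I genes compared had higher values in interferon-responding cells of WT ligation 72 h, 7 of them over 2-fold, and 15 of 16 did in KO, 9 over 2-fold. B2m, the light chain of class I molecules, had 2752 against 1611 CPM in WT and 2060 against 1239 in KO. Psmb8, a subunit of the immunoproteasome, had 864 against 486 CPM and 1141 against 458. For class II the medians were log2 0.07 in WT and 1.03 in KO. H2-Ab1, a class II chain, had 1841 against 1832 CPM in WT but 3672 against 1680 CPM in KO. Dendritic cell markers stood at 383 against 135 CPM in the same KO cells and at 97.3 against 91.0 CPM in WT, with 5 of 6 compared higher in KO, and their part in the class II values was not tested.

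At 72 h most genes of repair and of lipid handling had lower values in the interferon-responding cells. In WT ligation 72 h, 23 of 24 genes of this list had lower values, 2 of them under 0.5-fold, with a median log2 ratio of -0.24 beside -0.14 over all genes, of which 5.32% were under 0.5-fold. In KO 22 of 24 did, 10 of them under 0.5-fold, with a median of -0.67 beside -0.11 over all genes, of which 14.1% were. The cells of ligation 24 h went the other way, with 15 of 23 genes higher in WT (median 0.24) and 14 of 24 in KO (0.22). Fn1, fibronectin of the provisional matrix, had 466 against 1143 CPM in WT and 749.7 against 1257 in KO. Arg1, the arginase of wound macrophages, had 374 against 558 CPM and 213 against 659, and Mrc1, the mannose receptor, had 126 against 212 and 125 against 186. F13a1, a clotting factor subunit of monocytes, had 146 against 288 CPM and 173 against 294. Cxcl2, a neutrophil chemokine, had 124 against 288 CPM in WT and 23.9 against 615 in KO. None of the 20 inflammatory, 16 proliferation and 16 dissociation-induced genes was over 2-fold higher in both libraries. Since 2.59% of all genes were, a count of 0 in such short lists says little. In KO, 7 of 16 inflammatory, 9 of 16 proliferation and 1 of 16 dissociation-induced genes compared were under 0.5-fold, beside 14.1% of all genes. In WT 2 of 17, 2 of 16 and 0 of 16 were, beside 5.32%. The dissociation list differed little, at 5253 against 5281 CPM in WT and 5628 against 5709 in KO.

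Other interferon-induced genes were raised below the threshold too, to different degrees. Candidate cells of WT ligation 72 h were arranged by their UMIs of the 4 selection genes, in classes chosen after the data were seen. Irf7 stood at 82.9 CPM in 1426 cells with 0 UMIs, at 354 CPM in 410 cells with 1 to 3, at 719 in 109 cells with 4 to 6 and at 872 in 73 cells with 7 to 9. Above the threshold it ran from 982 to 1485 CPM. Bst2 went from 311 CPM at 0 UMIs to 1023 at 7 to 9 and 1291 at 50 or more. Isg15 climbed throughout, from 80.4 CPM at 0 to 1150 at 7 to 9 and 4016 at 50 or more. Cxcl10 in WT stood at 3.31 CPM at 0 UMIs, 5.26 at 1 to 3, 96.6 at 4 to 6 and 31.4 at 7 to 9, then at 175, 297 and 763 in the next 3 classes and at 7415 CPM in the 38 cells with 50 or more. The classes of KO ligation 72 h were not matched in depth to those of WT. With 7 to 9 UMIs, the median cell had 1962 UMIs in KO and 11409 in WT. The 4 genes made up 0.182% and 0.0605% of UMIs in these cells. The part of depth in the Cxcl10 values of KO was not tested. Cxcl10 in KO ligation 72 h stood at 14.6, 85.4 and 342 CPM in the first 3 classes. It was at 1185 CPM in 13 cells with 7 to 9 UMIs. The next 3 classes stood at 881, 442 and 520 CPM, and the 7 cells with 50 or more at 8788 CPM. Lyz2 in WT did not rise with these classes. It fell from 14455 CPM at 0 UMIs to 8204 CPM at 10 to 12, then stood at 14038.5, 10083.5 and 10090 CPM.

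**Figure D3:**
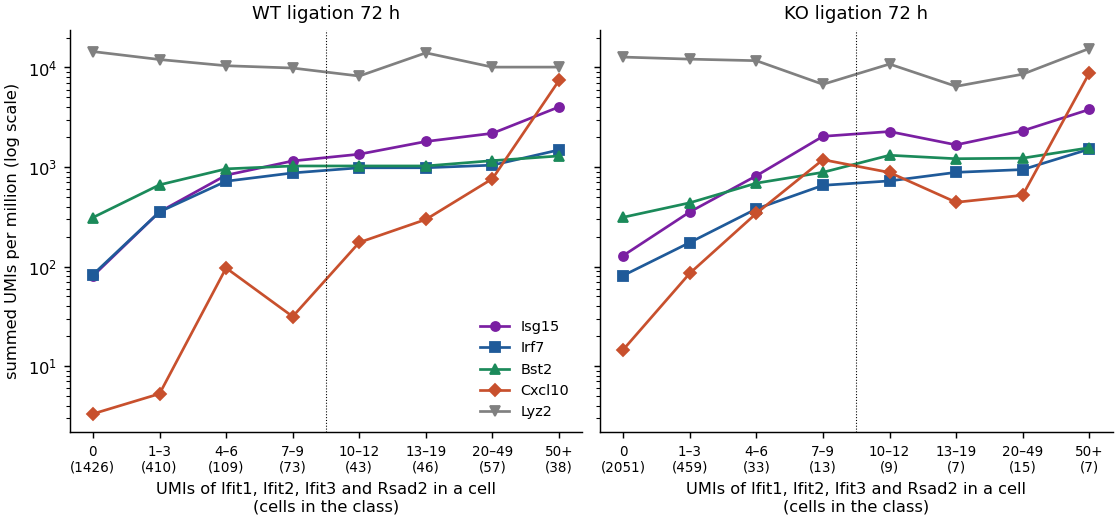
Summed CPM (vertical axis, log scale) of 5 genes in candidate cells grouped by their UMIs of Ifit1, Ifit2, Ifit3 and Rsad2 (horizontal axis, cells per class in brackets), for the 2 libraries of ligation 72 h. The dotted line marks the selection threshold, and in WT, Bst2 is at 1023 just below it and at 1291 in the last class, while Cxcl10 goes from 31.4 to 7415.

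The interferon-responding cells were not uniform in Cxcl10. In WT ligation 72 h 89 of 184 cells had 0 Cxcl10 UMIs, 42 had 1 to 9 and 53 had 10 or more, with a highest value of 355. A UMI was seen in 51.6% of these cells and in 3.12% of the other candidate cells, at median depths of 11976 and 11358 UMIs. In KO ligation 72 h 15 of 38 cells had 0, 9 had 1 to 9 and 14 had 10 or more, and 60.5% had a UMI against 7.12% of the others, at 9885 and 2592.5 UMIs. The antiviral list was nearly as high in WT cells with 0 Cxcl10 UMIs as in those with 10 or more, at 28198 and 30392 CPM, and Irf7 at 1080 and 1184 CPM. In the smaller sets of the other libraries the antiviral list was lower without Cxcl10, at 25742 against 37877 CPM in KO ligation 72 h, 15752 against 24891 in WT ligation 24 h and 17213 against 30357 in KO ligation 24 h. Within WT at 72 h, Ccl12 was at 709 CPM in cells without Cxcl10 and 2937 CPM in those with 10 or more, Ccl4 at 152 and 983 CPM, and Isg15 at 1863 and 3178 CPM. These subsets and the genes compared between them were chosen after the values were seen.

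Cells with many and with few macrophage complement transcripts were both present. C1qa, C1qb and C1qc encode complement C1q, made by macrophages and not by fresh monocytes. Of 184 cells of WT ligation 72 h, 94 had 10 or more UMIs of these genes together (51.1%) and 90 had fewer, and in KO 13 of 38 had 10 or more (34.2%). The antiviral list stood at 34052 CPM in the WT cells with fewer C1q UMIs and at 25698 CPM in those with more. In KO it stood at 29474 and 28712 CPM, and at ligation 24 h at 15383 and 25911 CPM in WT and 27378 and 22754 CPM in KO, so the order was not shared. Cxcl10 at 72 h stood at 1544 and 2388 CPM in WT and at 2352 and 2332 CPM in KO. Ly6c2, which marks classical monocytes, was at 1449 CPM in WT cells with fewer C1q UMIs and 696 CPM in those with more, against 475 and 439 CPM in KO. Plac8, another monocyte gene, was at 3964 and 1465 CPM in WT and 2994 and 2255 CPM in KO. Over all interferon-responding cells Ly6c2 stood at 1004 CPM against 248 CPM in the other candidate cells of WT ligation 72 h, and at 463 against 166 in KO. Ccr2, the receptor that brings monocytes into tissue, did not follow, at 501 against 598 CPM and 651 against 620.5. The classical monocyte markers summed to more in interferon-responding cells, at 6769 against 4400 CPM in WT and 7072 against 4504 CPM in KO, but did not all move 1 way. Of 10 markers, 5 were higher and 5 lower in WT (median log2 ratio 0.08), and 6 and 4 in KO (0.12). Over 2-fold higher were 3 in WT and 4 in KO, beside 3.28% and 6.16% of all genes, and 1 and 0 were under 0.5-fold. The medians over all genes were -0.14 and -0.11. Fn1, given above with lower values, is among these markers.

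**Figure D4:**
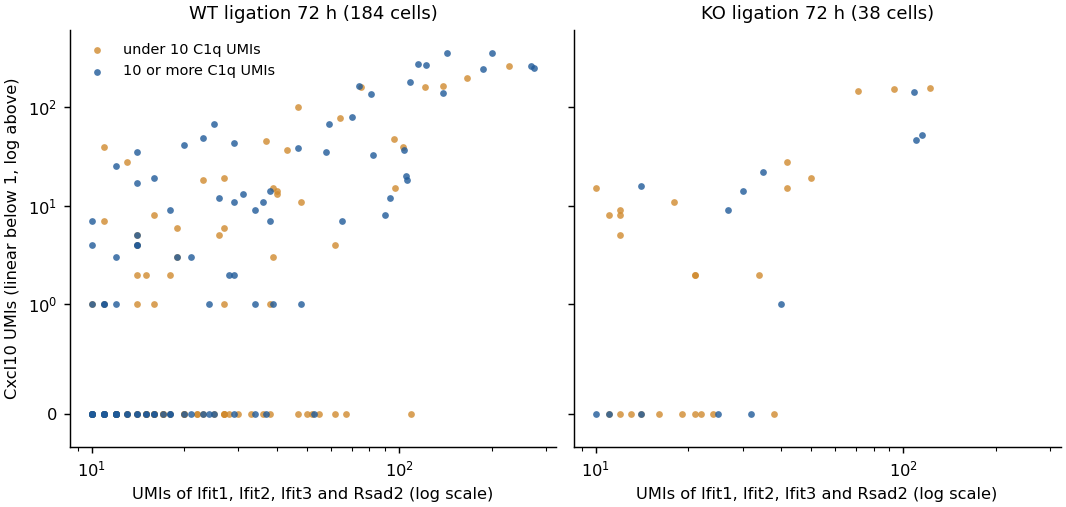
Each point is 1 interferon-responding cell at ligation 72 h, placed by its UMIs of the 4 selection genes (horizontal axis, log scale) and of Cxcl10 (vertical axis, linear below 1 and log above), in blue with 10 or more C1q UMIs and in orange with fewer. In WT 89 of 184 cells and in KO 15 of 38 lie at 0 Cxcl10 UMIs, and both colours occur along the whole range.

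Between genotypes, the antiviral program of the interferon-responding cells was at nearly the same level at 72 h. Cells of both genotypes were chosen by genes of this same program, so the selection itself favours similar levels. The comparison therefore cannot show whether the strength of the response differs between genotypes. The list summed to 29118 CPM in the 184 WT cells and 29211 CPM in the 38 KO cells. Isg15 was at 2333 and 2520 CPM, Irf7 at 1117 and 1026 CPM and Cxcl10 at 2043 and 2345 CPM. The median log2 ratio of KO over WT over 47 genes of the list was 0.20, with 34 higher, but it was -0.07 when cells were chosen by the share of their UMIs, so the comparison gave no direction. In the other candidate cells it was -0.10, with 10 of 47 higher.

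Of 5019 genes with at least 50 UMIs over the 2 sets of cells, 118 were over 2-fold higher in KO (2.35%) and 259 under 0.5-fold (5.16%). MHC class II genes were higher in KO, 9 of 10 genes compared, at a median log2 ratio of 0.79. H2-Ab1 was at 3672 CPM in KO and 1841 CPM in WT, a log2 ratio of 1.0 (0.91 to 1.08), and Cd74, the chaperone of class II, at 9584 and 5848 CPM. Within KO, H2-Ab1 stood at 5333 CPM in the 25 cells with fewer than 10 C1q UMIs and at 523 CPM in the 13 with more. Dendritic cell markers moved with it, at 383 CPM in KO and 97.3 CPM in WT, with Flt3 in 3 of 38 KO cells and Cd209a in 4, and their part in the class II difference was not tested. All 10 macrophage markers were lower in KO, at a median of -0.69, and 17 of 21 repair genes compared were, at -0.55, the whole list of 24 summing to 20211 CPM in KO and 30139 CPM in WT. Spp1, encoding osteopontin, was at 1050 CPM in KO and 3732 in WT (log2 ratio -1.83, -1.98 to -1.68), and C1qa at 893 and 1793 CPM. When cells were chosen by the share of their UMIs, the class II median was 0.21, the macrophage median -0.41 and the repair median -0.11. In the other candidate cells the macrophage markers were also lower in KO, at -0.23, and Spp1 at a log2 ratio of -0.62.

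Single genes at the ends of the ranking often rested on few cells. Cxcl9 had the highest ratio of KO over WT, at 4.61 (3.9 to 5.37), and it was 0.04 without the 3 cells that carried it. Ifitm1, a relative of Ifitm3, was at 736 CPM in KO and 214 in WT, with 277 UMIs in 13 of 38 KO cells, a log2 ratio of 1.78 that was 1.13 with cells chosen by the share of their UMIs. Naaa, an acid amidase of lysosomes, was at 205 and 83.6 CPM (1.29, 0.89 to 1.68), a ratio of 0.43 without its 3 highest cells. At the low end stood Cd14, the lipopolysaccharide co-receptor, at 74.4 against 265 CPM (-1.83, -2.43 to -1.28), Cd72 at 98.4 against 286 CPM and Ecm1 at 130 against 299 CPM. In the other candidate cells Cd14 was at 404 CPM in KO and 339 in WT. All 16 proliferation genes together had 98 UMIs in KO cells and 1635 in WT cells, which is 261 and 680.0 CPM, and 9 of the 16 were at 0 in KO.

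Between 24 h and 72 h after ligation the inflammatory genes were lower. They summed to 14872 CPM in interferon-responding cells at 24 h and 1779 CPM at 72 h in WT, and to 10562 and 1412 CPM in KO. The antiviral list summed to 17503 and 29118 CPM in WT and to 25122 and 29211 CPM in KO. This comparison used 12 WT and 19 KO cells at 24 h, fewer than the 20 set for the other comparisons, and was added after the data were seen. The 12 WT cells carried endothelial markers at 1298 CPM, against 125 CPM in the other candidate cells of their library and 69.0 CPM at 72 h. Of the 10 markers, Cdh5, Cldn5, Emcn and Vwf were at 0 in the 12 cells. Fabp4 was the only 1 with enough UMIs to be compared, at a log2 ratio of -4.71 for 72 h over 24 h. A doublet caller (Scrublet) marked 3 of the 12 cells. The part of the endothelial marker transcripts in the comparison was not tested. In WT 732 of 4808 genes were over 2-fold higher at 72 h (15.2%) and 517 under 0.5-fold (10.8%). In KO 113 of 1577 were higher (7.17%) and 112 lower (7.1%). All 12 inflammatory genes compared were lower at 72 h in WT, at a median log2 ratio of -2.29, and all 10 in KO, at -2.11. The other candidate cells moved the same way, at -1.94 and -0.91. Dissociation-induced genes moved with them, 14 of 15 lower in WT at a median of -1.44 and 12 of 12 in KO at -0.69, and their part in the inflammatory difference was not tested. Il1b, the leading inflammatory cytokine, was at 2357 CPM at 24 h and 400 CPM at 72 h in WT, and at 1207 and 399 CPM in KO. Cxcl2 went from 5681 to 124 CPM in WT and from 3809 to 23.9 CPM in KO. Arg1 went from 3619 to 374 CPM and from 3072 to 213 CPM. Ccl24, an eosinophil attractant, had 794 UMIs in 3 of 12 WT cells at 24 h and 20 UMIs in 184 cells at 72 h.

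Some genes were higher at 72 h in both genotypes. Of 1574 genes compared in both, 55 were over 2-fold higher and 64 under 0.5-fold in both. Rgs10, a regulator of G protein signaling, went from 101 to 310 CPM in WT and from 89.1 to 274 CPM in KO. Ckb, a creatine kinase, went from 64.9 to 425 CPM and from 14.8 to 585 CPM, on 9 and 3 UMIs at 24 h. AW112010, an interferon-induced transcript, had 0 UMIs in the 12 WT cells at 24 h and 275 CPM at 72 h, and went from 134 to 463 CPM in KO. The median log2 ratio of the antiviral list was 0.33 in WT and 0.18 in KO. With cells chosen by the share of their UMIs it was -0.0027 in WT and -0.07 in KO, so it too gave no direction.

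The 7 sham cells show the program outside infarction. The 3 WT sham cells had 75, 66 and 25 UMIs of the selection genes and 20, 53 and 13 of Isg15. Those of KO sham had 47, 18, 15 and 11, with 23, 4, 1 and 1 of Isg15. In the KO cell with 15, all 15 UMIs were Rsad2 and Irf7 had 3. The KO cell with 47 had 114 Cxcl10 UMIs, 92 of H2-Ab1 and 0 of Lyz2. Some sham cells thus had few Isg15 UMIs. In the KO cell with 11, which had 4464 UMIs in all, the antiviral list stood at 18593 CPM. In the 2 KO cells with 15 and 18 it stood at 13182 CPM. KO sham candidate cells with 0 UMIs of the selection genes stood at 5606 CPM.

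Higher antiviral levels at 72 h were also seen outside the selected cells. Over the antiviral list without the selection genes, the other candidate cells of WT stood at 5724 CPM in sham, and at 6156 and 9446 CPM 24 h and 72 h after ligation. In KO they stood at 5896, 5865 and 8078 CPM. Neutrophils, taken by S100a8, S100a9 and Csf3r, stood at 5759, 6437 and 14556 CPM in WT and 5693, 6124 and 7575 CPM in KO. Of WT neutrophils at 72 h 59 of 650 had 10 UMIs of the selection genes (9.08%), against 9 of 366 in KO (2.46%), at median depths of 2238.5 and 2031.5 UMIs. Endothelial cells stood at 6153 and 7405 CPM at 24 h and 72 h in WT and at 6153 and 6071 in KO. Fibroblasts stood at 5098.5 and 4589 CPM in WT and 4567 and 4457 in KO. Among these gates the gap between WT and KO at 72 h was widest in neutrophils.

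No interferon transcript was captured in the interferon-responding cells. All 21 listed interferon genes had 0 UMIs among their 3205427 UMIs, which allows up to 0.936 CPM for each. Over all passing cells, 6 of the 21 genes had a UMI. Ifng, made mainly by T and NK cells, had 25 UMIs in 10 cells of WT ligation 72 h, 11 UMIs in 10 cells of KO ligation 72 h and 3 to 6 UMIs in each of the other 4 libraries. In WT ligation 72 h, 1 cell held 15 of the 25 UMIs, and other candidate cells held 0. In KO ligation 72 h, other candidate cells held 8 of the 11.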

How the data were processed

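Single-cell RNA-seq UMI counts per gene and cell, in 6 libraries, are used as the authors deposited them, one filtered matrix per library. Per the file headers they were made with Cell Ranger 6.0.0, and per the submitters' processing notes on build mm10. The gene annotation is not given in the sources used here. Cells and interferon-responding cells were filtered as stated above. UMIs were summed over the cells of a set and scaled to CPM. Log2 ratios carry exact conditional Poisson intervals, shares Clopper-Pearson intervals and differences of shares Newcombe intervals, all for counting error only. A gene was counted as over 2-fold or under 0.5-fold where it had at least 50 UMIs over the pair.

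Genes were named by rank: the 20 highest and 10 lowest against other candidate cells above 100 CPM, the 4 highest and lowest of each comparison within the cells above 200 CPM, the 5 highest and lowest shared by both genotypes, and up to 6 of each list with the most UMIs. Some genes that this rule names are not reported here. The cells, lists and rules were chosen with earlier results of these data known. Alternatives changed the UMI threshold, depth, gene minimum, averaging and Scrublet doublets, which were not removed otherwise. The scripts were tested on simulated data. Tools were Python 3.11.15, numpy 2.4.6, scipy 1.17.1, pandas 2.3.3, matplotlib 3.10.9 and scanpy 1.11.5.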

Additional observations from a re-analysis of the deposited data

Results flagged for a closer look

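At ligation 72 h, 4 gene lists had medians of KO over WT with opposite signs in interferon-responding cells and in other candidate cells. The median log2 ratio was 0.20 in interferon-responding cells and -0.10 in the others for antiviral genes, 0.18 and -0.17 for interferon-induced chemokines and cytokines, and 0.12 and -0.20 for MHC class I. For inflammatory genes it was -0.53 over 12 genes and 0.60 over 18. None of these differences was tested, since each group has 1 library, and with cells chosen by the share of their UMIs the first and last values in interferon-responding cells were -0.07 and 0.09.

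Ifnb1, encoding interferon beta, was captured outside the cells described, in 3 barcodes of WT ligation 24 h and KO ligation 72 h. The other 4 libraries had 0 UMIs, among them WT ligation 72 h, which holds most of the cells described. One barcode of WT ligation 24 h held 31 Ifnb1 UMIs among 16965, with 169 UMIs of the 4 selection genes, 314 of Cxcl10, 397 of Ccl5 and 470 of Cxcl1. It also held 142 UMIs of Dcn, a fibroblast gene, and none of the candidate genes Csf1r, Cd68, Fcgr1 and Lyz2. One barcode of KO ligation 72 h held 11 Ifnb1 UMIs among 3233, with 57 of Isg15 and 0 of the selection genes. The other barcode, a candidate cell of KO ligation 72 h, held 1.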

How the results depend on the processing

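Of 710 values recomputed under other settings for 139 results, 4 changed sign in a way that ended a stated direction. Counts and shares have no sign, so they could not change in this way. Other values changed without such a reversal. Among values of the main results, 37 were marked as moved, 3 as reversed and 68 as the same. Among the rest, 56 were marked as moved, 1 as reversed and 545 as the same. No replicate could be left out, because each group has 1 library. No paired analysis was possible because the labels give no replicate numbers. Asking for 5 or 20 UMIs of the selection genes gave shares at ligation 72 h of 15.0% or 4.31% in WT and 2.78% or 0.848% in KO, differences of KO minus WT of -12.2 or -3.47 points, and steps from 24 h to 72 h in WT of 12.4 or 3.83 points. Thinning gave 10.2% and 4.77%, -5.46 points, and steps of 8.59 points in WT and 3.13 points in KO. The share of UMIs gave 3.70% in KO, -4.16 points and a KO step of 2.48 points. A minimum of 3000 UMIs per cell gave 3.03% in KO, -5.52 points and a KO step of 1.79 points.

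Against other candidate cells, 4 libraries left 128 genes higher and 6 lower, WT ligation 72 h alone gave 540 lower, and means over cells gave 221 lower. For KO over WT within the cells, minimums of 100 and 20 UMIs per gene gave 52 and 330 higher genes and 92 and 649 lower, and the share of UMIs gave 62 and 120. From 24 h to 72 h in WT, 100 UMIs gave 461 higher and 243 lower genes and 20 UMIs gave 1287 lower. In KO they gave 41 and 407 higher and 67 and 231 lower. With cells chosen by the share of their UMIs the antiviral median was -0.067 for KO over WT, and from 24 h to 72 h it was -0.0027 in WT and -0.073 in KO, where centring on the median gene gave 0.071. The antiviral level of WT fibroblasts from 24 h to 72 h was log2 0.13 as a mean over cells and -0.15 as a sum. The causes were not tested. The use of 4 libraries or of 1, of 5000 UMIs as a minimum, and of sets without the 3 highest cells was chosen after the data were seen. With 38 KO cells at 72 h and 12 to 19 cells at 24 h, single cells can set the level of a gene.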
